A study of Mus musculus with 7 samples.

Results

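Cyp4 is a family of cytochrome P450 enzymes, and 10 of its genes were followed here in mouse liver RNA: Cyp4a10, Cyp4a12a, Cyp4a12b, Cyp4a14, Cyp4a31, Cyp4a32, Cyp4f13, Cyp4f14, Cyp4f15 and Cyp4v3. They were taken by symbol from the 23347 rows of the liver count table, and all 10 were among the 15179 genes with enough counts to test. The genes were picked with their difference between the 2 groups of mice already known. That difference is therefore given for each member as a description, with its standard error and without a p-value. Where members are counted by a rule applied to every gene, the count describes where they stand among all genes and supports nothing.

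Liver RNA was sequenced from 7 male C57BL/6 mice, 1 library per mouse. All of them carried B4galt1 alleles flanked by loxP sites and were fed the CDAHFD, a high-fat diet of defined amino acids that lacks choline and leads to steatohepatitis, for 15 weeks. The 4 controls were B4galt1 flox/flox littermates without Cre, which the sample labels call WT, and the 3 mice labelled B4galt1 hep-/- also carried Alb-Cre, in which the albumin promoter drives the recombinase in hepatocytes. The question was how the hepatic transcriptome of the diet-fed mouse differs when hepatocytes lose B4GALT1, a galactosyltransferase that extends N-linked glycans. The labels give no age, and library names carry animal numbers, so each replicate was read as a separate mouse.

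Total counts were 37838654 to 39668509 in flox/flox libraries and 30608271 to 34586588 in libraries labelled hep-/-. B4galt1 itself was measured at 48.7 to 53.0 CPM (counts scaled to library size with TMM factors) in the 4 flox/flox mice and at 28.4, 23.9 and 53.7 CPM in replicates 1, 2 and 3 labelled hep-/-. The B4galt1 level of replicate 3 thus went against its label. Counts per gene from whole liver do not show whether the deletion took place in that mouse, which was not tested. Values without that library are given below for every member and for the pathway and sex-biased lists. The groups are named by their labels throughout. Over all 3 libraries B4galt1 had a log2 fold change of -0.52 ± 0.26 (SE) and did not pass the edgeR quasi-likelihood test (adjusted p = 0.181), and without replicate 3 it fell by 0.96 (adjusted p = 0.0139). The 13 mitochondrially encoded genes took 3.88% to 8.0% of counts in flox/flox libraries and 14.4% to 22.6% in libraries labelled hep-/-. Of 11 hepatocyte markers tested, 1 (Cyp2e1) was lower by the call rule given below. The summed level of the markers overlapped between groups, at 104482 to 149108 and 107745 to 175965 CPM. That sum mainly reports Alb, which alone was at 57197 to 90888 CPM in flox/flox mice and 70086 to 112935 CPM in mice labelled hep-/-. Of 10 macrophage markers, 6 were lower and none higher, beside 7.83% lower and 8.0% higher over all tested genes. The summed level of these markers was 1542 to 3517 CPM against 717 to 813 CPM. Stellate cell, cholangiocyte, lymphocyte and neutrophil lists had no called gene, and of 7 sinusoidal endothelial markers Kdr alone was lower, a call lost without any 1 of 5 libraries. The summed level of the endothelial markers was 425 CPM in flox/flox replicate 3, 112 to 139 CPM in the other flox/flox mice and 147 to 181 CPM in mice labelled hep-/-. The part of the mitochondrial share and of macrophage and endothelial RNA in the results below was not tested. In RNA from whole liver, fewer cells of a type and less RNA per cell cannot be told apart.

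CYP4 enzymes sit in the endoplasmic reticulum and add a hydroxyl group to the last, or omega, carbon of a fatty acid, using electrons passed on by cytochrome P450 reductase. Alcohol and aldehyde dehydrogenases then turn the omega-hydroxy acid into a dicarboxylic acid, which peroxisomes shorten, so the route serves as an overflow for fatty acids in a lipid-loaded liver. CYP4A enzymes act mainly on medium- and long-chain fatty acids and make the signalling lipid 20-HETE from arachidonic acid, CYP4F enzymes act on leukotrienes and on very long chains, and Cyp4a10 and Cyp4a14 are classical targets of the fatty acid receptor PPARα.

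The members did not move as 1 block. Cyp4a12a and Cyp4a12b were 7.22-fold and 6.64-fold lower in mice labelled hep-/-, Cyp4f14 was 2.01-fold lower and Cyp4a14 1.65-fold lower, while Cyp4f15 was 1.75-fold higher. Cyp4v3 was 1.52-fold lower on average, and Cyp4a10, Cyp4a31, Cyp4a32 and Cyp4f13 overlapped between the groups. A gene was called when its adjusted p was under 0.05 and its absolute log2 fold change over 0.58. By that rule 5 of the 10 members were called, beside 15.8% of all tested genes. Of these, 4 were lower, beside 7.83% of all genes, and 1 was higher, beside 8.0%. The 2 groups did not overlap for 6 members, beside 28.6% of all genes, with 5 lower (15.0% of all genes) and 1 higher (13.6%). The median log2 fold change was -0.29 over the members and 0.02 over all tested genes. Since the members were chosen on this contrast, nothing is read from these counts. With replicate 3 labelled hep-/- left out, 5 members again met the rule, beside 2157 of 15639 genes. Without flox/flox replicate 1 or 4 or replicate 1 labelled hep-/- 4 did, beside 2396 of 14912, 1552 of 15035 and 1818 of 15559 genes. Without flox/flox replicate 2 or 3 or replicate 2 labelled hep-/- 3 did, beside 885 of 15005, 1405 of 15015 and 1199 of 15450 genes. Over these 7 omissions Cyp4a12a, Cyp4a12b and Cyp4f14 met the rule in 7, Cyp4f15 in 4 and Cyp4a14 in 1.

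Leaving out replicate 3 labelled hep-/-, whose B4galt1 went against its label, gave log2 fold changes of -2.98 for Cyp4a12a, -2.96 for Cyp4a12b, -0.80 for Cyp4a14, 0.16 for Cyp4a10, 0.11 for Cyp4a31 and 0.05 for Cyp4a32. For Cyp4f14, Cyp4f15, Cyp4f13 and Cyp4v3 the values were -1.21, 0.82, 0.48 and -0.66. Leaving out flox/flox replicate 3, the library high in endothelial markers, gave -3.01 for Cyp4a12a, -2.83 for Cyp4a12b, -0.73 for Cyp4a14, -1.07 for Cyp4f14, 0.72 for Cyp4f15 and -0.56 for Cyp4v3. The sign changed for Cyp4a31 and Cyp4a32 alone (-0.07 and -0.12), whose groups overlapped.

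**Figure D1:**
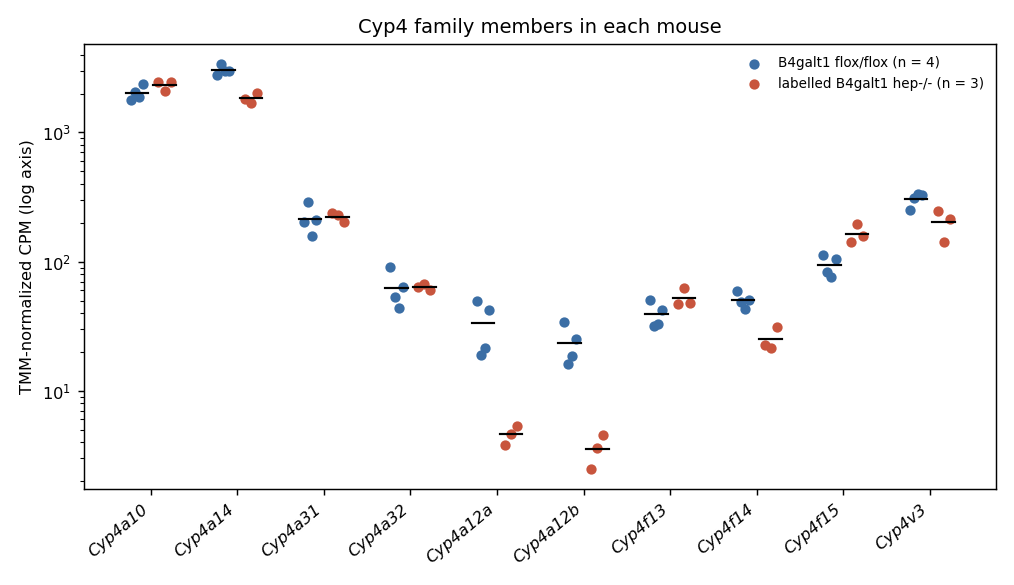
TMM-normalized CPM (log axis) of the 10 Cyp4 members in each mouse, with a point per mouse and a bar at the group mean (blue, flox/flox controls, n = 4, and red, hep-/- label, n = 3). All mice labelled hep-/- lie at or below 5.36 CPM for Cyp4a12a, where the lowest flox/flox mouse is at 19.1 CPM, whereas the groups overlap for Cyp4a10, Cyp4a31, Cyp4a32 and Cyp4f13.

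Cyp4a12a and Cyp4a12b encode the main makers of 20-HETE in the mouse and are known for their higher expression in males. Cyp4a12a was measured at 49.9, 19.1, 21.5 and 42.6 CPM in flox/flox replicates 1 to 4 and at 3.83, 4.61 and 5.36 CPM in replicates 1 to 3 labelled hep-/-. Flox/flox mice themselves spread over a wide range, yet the lowest of them lay well above every mouse labelled hep-/-. The log2 fold change was -2.85 ± 0.36 (SE, n = 4 and 3). Cyp4a12b was measured at 34.3, 16.3, 18.7 and 25.2 CPM and at 2.50, 3.59 and 4.57 CPM in the same order. Its log2 fold change was -2.73 ± 0.32, and flox/flox replicate 1 was again the highest mouse.

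The 2 genes are near copies, so reads can be assigned to the wrong one. In the GENCODE M21 annotation of GRCm38 their coding sequences are each 1524 bases long and 98.49% identical, differing at 23 positions, and 41.3% of all 100-base windows of either one occur exactly in the other. The stretch shown is where they differ most, 4 positions in 60 bases, so that a reader can see how few bases tell the 2 transcripts apart. It covers coding bases 647 to 706, in exon 6 of 12, on the plus strand of GRCm38, at chr4:115326645-115326704 for Cyp4a12a and chr4:115432898-115432957 for Cyp4a12b. Capitals mark the differing bases.
Cyp4a12a: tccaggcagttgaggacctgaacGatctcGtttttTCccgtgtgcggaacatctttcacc
Cyp4a12b: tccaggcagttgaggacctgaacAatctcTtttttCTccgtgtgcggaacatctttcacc
The ratio of Cyp4a12a to Cyp4a12b counts was 1.37 ± 0.25 (SD, n = 4) in flox/flox libraries and 1.33 ± 0.18 (SD, n = 3) in libraries labelled hep-/-, so the pair kept its proportion while both were lower. When the counts of both copies were summed before the fit, which removes the question of how reads were split, the pair was at 84.2, 35.3, 40.2 and 67.8 CPM in flox/flox mice and at 6.33, 8.20 and 9.93 CPM in mice labelled hep-/-, a log2 fold change of -2.80 ± 0.33.

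Cyp4a14 and Cyp4a10 are the abundant fatty acid hydroxylases of the family and lie next to each other on chromosome 4. Cyp4a14 was measured at 2769, 3374, 2984 and 2991 CPM in flox/flox replicates 1 to 4 and at 1813, 1689 and 2009 CPM in replicates 1 to 3 labelled hep-/-. The groups did not overlap, and the log2 fold change was -0.72 ± 0.22 (SE). With any 1 library left out it ran from -0.80 to -0.67. Cyp4a10 was measured at 1768, 2068, 1864 and 2365 CPM in flox/flox mice and at 2439.8, 2085 and 2447 CPM in mice labelled hep-/-. Flox/flox replicate 4 lay above replicate 2 labelled hep-/-, and the log2 fold change was 0.20 ± 0.22.

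The balance between these neighbours can be read inside each library, where depth and normalization cancel. Cyp4a14 had 1.57, 1.63, 1.60 and 1.26 counts for each Cyp4a10 count in flox/flox replicates 1 to 4, and 0.743, 0.810 and 0.821 in libraries labelled hep-/-. Cyp4a14 thus gave more counts than Cyp4a10 in all 4 flox/flox livers and fewer in all 3 livers labelled hep-/-. Their coding sequences are 75.56% identical, and no 100-base window of the Cyp4a14 coding sequence occurs exactly in another annotated transcript.

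Cyp4a31 and Cyp4a32, less studied hydroxylases that lie beyond Cyp4a10 on chromosome 4, are near copies of it. Cyp4a31 was measured at 201, 289, 158 and 210.4 CPM in flox/flox mice and at 236, 231 and 203 CPM in mice labelled hep-/-, with a log2 fold change of 0.06 ± 0.22 (SE). Cyp4a32 was measured at 91.0, 53.7, 44.1 and 63.1 CPM and at 63.2, 67.7 and 60.0 CPM, with a log2 fold change of 0.01 ± 0.24. Both genes overlapped between the groups, and for each of them the 3 mice labelled hep-/- fell inside the range of the 4 flox/flox mice. The coding sequences of Cyp4a10, Cyp4a31 and Cyp4a32 are each 1527 bases long, with identities of 97.18% (Cyp4a10 and Cyp4a32), 96.59% (Cyp4a10 and Cyp4a31) and 96.01% (Cyp4a31 and Cyp4a32). Of their 100-base windows, 17.9%, 13.9% and 20.1% occur exactly in another transcript. The stretch shown, coding bases 202 to 261 in exon 2, is where the 3 differ most, at 9 of the 77 positions that differ in all, and capitals mark those positions. It lies on the plus strand of GRCm38 at chr4:115519642-115519701, chr4:115565022-115565081 and chr4:115602272-115602331.
Cyp4a10: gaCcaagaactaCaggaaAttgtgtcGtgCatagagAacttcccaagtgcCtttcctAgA
Cyp4a31: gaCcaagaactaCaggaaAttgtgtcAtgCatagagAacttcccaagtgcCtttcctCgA
Cyp4a32: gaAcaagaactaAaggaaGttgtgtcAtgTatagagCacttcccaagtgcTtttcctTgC
Summed before the fit, the 3 genes had a log2 fold change of 0.19 ± 0.22, at 2061 to 2639 CPM in flox/flox mice and 2384 to 2739 CPM in mice labelled hep-/-.

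The CYP4F enzymes inactivate leukotriene B4 and handle long-chain fatty acids. Cyp4f14 was measured at 59.5, 48.4, 43.2 and 50.5 CPM in flox/flox mice and at 22.6, 21.4 and 31.3 CPM in mice labelled hep-/-, a log2 fold change of -1.01 ± 0.20 (SE). Cyp4f15 went the other way, from 112, 82.5, 76.3 and 105.5 CPM to 142, 194 and 159 CPM, a log2 fold change of 0.81 ± 0.21. Neither gene overlapped between the groups. Cyp4f13 was measured at 50.2, 31.9, 33.1 and 41.9 CPM and at 47.1, 63.0 and 48.1 CPM, a log2 fold change of 0.42 ± 0.21. Flox/flox replicate 1 lay above 2 mice labelled hep-/-, so Cyp4f13 overlapped. With any 1 library left out, the log2 fold change of Cyp4f14 ran from -1.21 to -0.90 and that of Cyp4f15 from 0.67 to 0.91.

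Within a library, the ratio of Cyp4f14 to Cyp4f15 counts was 0.530, 0.587, 0.567 and 0.479 in flox/flox replicates 1 to 4 and 0.159, 0.110 and 0.198 in libraries labelled hep-/-. The ratio of Cyp4f13 to Cyp4f15 moved less, from 0.387 to 0.448 in flox/flox libraries to 0.303 to 0.332 in the others. No 100-base window of the coding sequences of Cyp4f13, Cyp4f14 or Cyp4f15 occurs exactly in another transcript, and Cyp4f14 is 79.98% identical to Cyp4f15 and 78.18% to Cyp4f13.

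**Figure D2:**
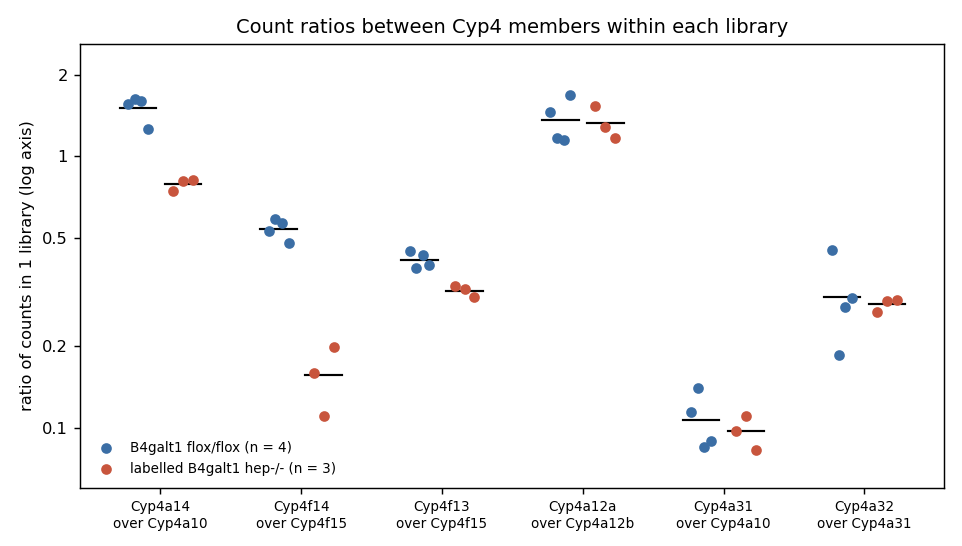
Ratio of the counts of 2 Cyp4 members within each library (log axis), with a point per mouse and a bar at the group mean (blue, flox/flox controls, n = 4, and red, hep-/- label, n = 3). Cyp4a14 over Cyp4a10 runs from 1.26 to 1.63 in flox/flox libraries and from 0.743 to 0.821 in the others, and the ratios between near copies (Cyp4a12a over Cyp4a12b, Cyp4a31 over Cyp4a10, Cyp4a32 over Cyp4a31) overlap.

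Cyp4v3, the mouse counterpart of the human gene mutated in Bietti crystalline dystrophy, encodes a hydroxylase of medium-chain and polyunsaturated fatty acids. It was measured at 253, 312, 333 and 326 CPM in flox/flox mice and at 247, 141 and 215 CPM in mice labelled hep-/-. Replicate 1 labelled hep-/- came close to flox/flox replicate 1, and the groups stood apart by that narrow gap alone. The log2 fold change was -0.60 ± 0.23 (SE), and it ran from -0.79 to -0.40 with any 1 library left out. In the annotation, 10.7% of its 100-base coding windows also occur in the overlapping gene model Gm45753.

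Levels of different genes were compared per length, as FPKM (counts scaled by gene length and library total) rescaled by the TMM factors. In flox/flox livers Cyp4a10 at 967 ± 127 (SD, n = 4) and Cyp4a14 at 916 ± 76.0 FPKM led, with overlapping ranges, and Cyp4v3 followed at 106 ± 12.6 FPKM. Next came Cyp4a31 at 84.8, Cyp4f15 at 43.4, Cyp4a32 at 30.5, Cyp4f13 at 20.0, Cyp4a12a at 13.7, Cyp4f14 at 12.1 and Cyp4a12b at 9.86 FPKM. How reads that match several genes were counted is not given in the sources used here, so levels and shares of the near copies (41.3% of windows shared for the Cyp4a12 pair, 13.9% to 20.1% for Cyp4a10, Cyp4a31 and Cyp4a32) may be too low beside those of genes with no shared window, and their places in the order are uncertain. Neighbours in this order overlapped over the 4 mice except at 2 steps, from Cyp4a14 to Cyp4v3 and from Cyp4a31 to Cyp4f15. In livers labelled hep-/- Cyp4a10 at 1114 ± 99.1 FPKM (SD, n = 3) stood clear of Cyp4a14 at 555 ± 48.7 FPKM, Cyp4f15 at 76.0 FPKM moved above Cyp4v3 at 69.5 FPKM with overlapping ranges, and Cyp4a12a and Cyp4a12b were at 1.90 and 1.48 FPKM.

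Summed over the 10 genes, the length-scaled level was 2202 ± 180 FPKM (SD, n = 4) in flox/flox mice and 1970 ± 138 FPKM (SD, n = 3) in mice labelled hep-/-, and the ranges overlapped. Cyp4a10 and Cyp4a14 together made up 85.4% ± 1.44 of that sum in flox/flox mice and 84.7% ± 1.30 in the others. Inside that share Cyp4a10 went from 43.8% to 56.5% and Cyp4a14 from 41.6% to 28.2%. The Cyp4a12 pair, with the lowest ratio between groups of all members, held 0.631% and 0.454% of the sum in flox/flox mice and 0.0967% and 0.0754% in mice labelled hep-/-.

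**Figure D3:**
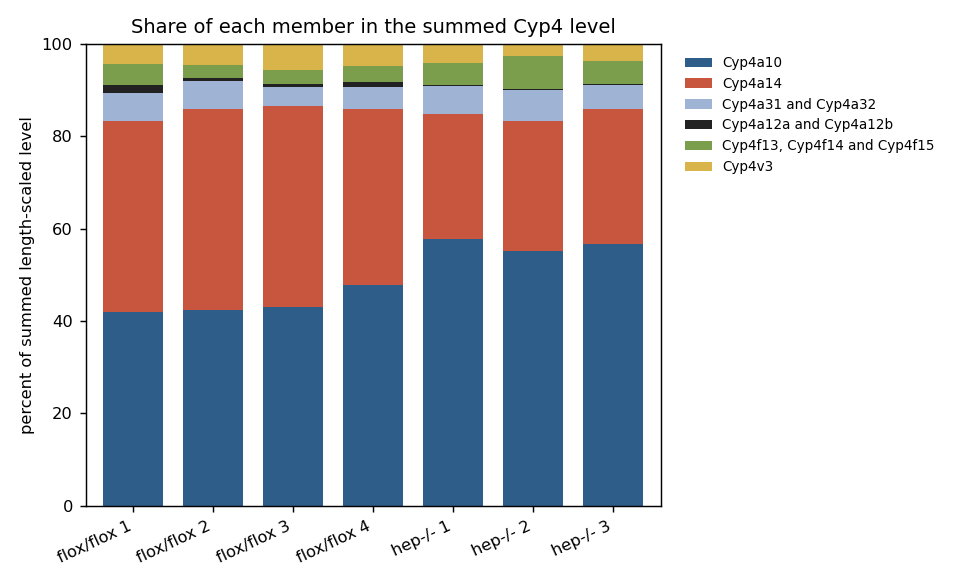
Share (percent) of each member in the summed length-scaled level of the 10 Cyp4 genes, 1 bar per mouse, for flox/flox replicates 1 to 4 and replicates 1 to 3 labelled hep-/-. Cyp4a10 and Cyp4a14 fill 83.3% to 86.6% of every bar, and the boundary between them lies at 41.9% to 47.8% in flox/flox mice and at 55.1% to 57.8% in mice labelled hep-/-.

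The members lie in 3 places in the genome. In the RefSeq annotation of GRCm38.p6 the 6 Cyp4a genes form a cluster on chromosome 4, with other genes between some of them, in the order Cyp4a12a, Cyp4a12b, Cyp4a14, Cyp4a10, Cyp4a31 and Cyp4a32. Log2 fold changes along that order ran -2.85, -2.73, -0.72, 0.20, 0.06 and 0.01, so the lower genes stood at the start of the cluster and the genes that overlapped between groups at its end. On chromosome 17 Cyp4f15 at 0.81 was followed, beyond 12 other genes, by Cyp4f14 at -1.01 and directly by Cyp4f13 at 0.42. There, the lower gene was flanked by members with positive values. Cyp4v3 lies on chromosome 8.

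**Figure D4:**
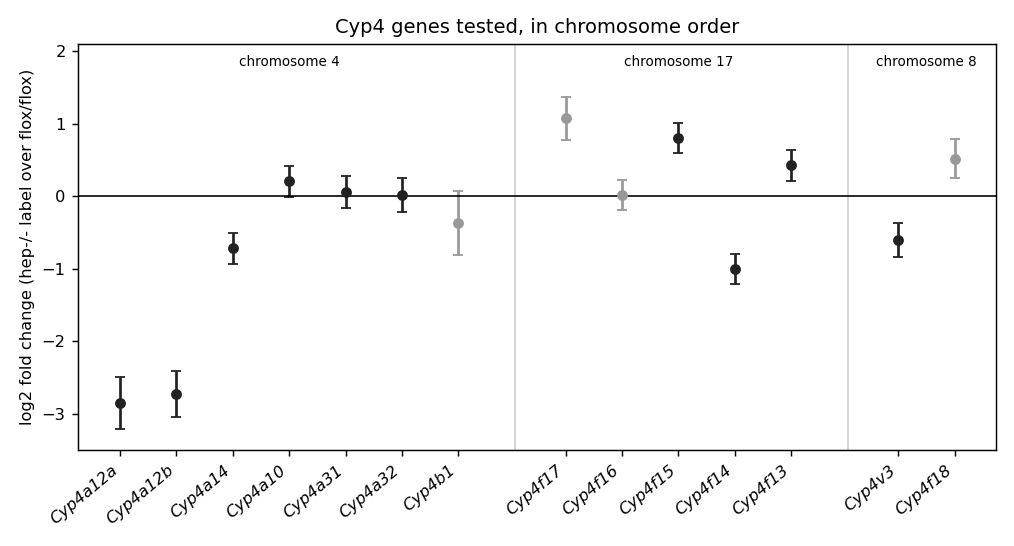
Log2 fold change of each tested Cyp4 gene, mice labelled B4galt1 hep-/- (n = 3) over flox/flox mice (n = 4), in chromosome order and not to distance, with error bars of 1 SE. Members are black and the other Cyp4 genes grey. The values run from -2.85 at Cyp4a12a to 0.20 at Cyp4a10 on chromosome 4, and Cyp4f14 at -1.01 stands between Cyp4f15 at 0.81 and Cyp4f13 at 0.42 on chromosome 17.

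The RefSeq promoter table matched Cyp4a32, Cyp4f13, Cyp4f14, Cyp4f15 and Cyp4v3. Cyp4a10, Cyp4a12a, Cyp4a12b, Cyp4a14 and Cyp4a31 were not searched. The 250 bases before each start and a shorter stretch after it were searched on both strands. The motifs were a PPARα element (AGGNCANAGGNCA, found in 0.381% of 32851 promoters), its single core AGGTCA (16.3%), the STAT motif TTCNNNGAA (8.30%) and the TATA box TATAAA (13.6%). These shares cover windows of the same extent. The core may lie within the longer element. Cyp4f13 held 1 STAT motif at position -22 from the start, and Cyp4a32 held 1 TATA box at position -113, on the other strand. None of the 4 motifs was in the windows of Cyp4f14 (4 starts), Cyp4f15 or Cyp4v3. The promoters of the 3 members on chromosome 17 are shown because Cyp4f14 and Cyp4f15 differed in opposite directions and Cyp4f13, whose groups overlapped, lies directly beyond Cyp4f14. They lie at chr17:32685409-32685658 on the plus strand (Cyp4f15) and at chr17:32917357-32917606 (Cyp4f14, first start) and chr17:32947362-32947611 (Cyp4f13) on the minus strand of GRCm38.p6. Only the bases before the start are printed, and capitals mark the STAT motif.
Cyp4f15: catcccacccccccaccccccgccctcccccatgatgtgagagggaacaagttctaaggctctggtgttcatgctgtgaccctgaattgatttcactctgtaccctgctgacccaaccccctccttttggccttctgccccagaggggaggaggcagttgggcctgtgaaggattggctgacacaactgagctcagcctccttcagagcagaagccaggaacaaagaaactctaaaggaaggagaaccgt
Cyp4f14: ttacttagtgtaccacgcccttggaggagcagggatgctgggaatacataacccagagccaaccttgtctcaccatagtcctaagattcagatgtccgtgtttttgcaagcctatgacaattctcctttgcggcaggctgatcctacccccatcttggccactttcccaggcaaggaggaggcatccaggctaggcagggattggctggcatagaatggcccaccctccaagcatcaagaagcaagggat
Cyp4f13: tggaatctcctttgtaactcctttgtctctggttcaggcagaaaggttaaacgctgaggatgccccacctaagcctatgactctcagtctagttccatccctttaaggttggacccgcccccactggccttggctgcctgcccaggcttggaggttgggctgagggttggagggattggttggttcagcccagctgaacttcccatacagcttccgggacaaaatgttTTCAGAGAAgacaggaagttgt

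Some members varied together from mouse to mouse around their group means, and others did not. Over the 7 mice, deviations of log2 CPM had a Pearson r of 0.948 between Cyp4f13 and Cyp4f15, 0.909 between Cyp4a12a and Cyp4a12b, 0.853 between Cyp4a32 and Cyp4f13 and 0.826 between Cyp4a12a and Cyp4f15. Cyp4v3 ran opposite to Cyp4f13 (-0.766) and Cyp4f15 (-0.756), and Cyp4a14 opposite to Cyp4f13 (-0.793). Other pairs were near 0, such as Cyp4a10 and Cyp4a12a (0.0127), Cyp4f14 and Cyp4v3 (0.0187) and Cyp4a31 and Cyp4f15 (0.0597), and the near copies Cyp4a31 and Cyp4a32 (0.172) and Cyp4a10 and Cyp4a32 (-0.252) did not vary closely together. Over the 4 flox/flox mice alone, r was 0.0227 for Cyp4a10 and Cyp4a12a and 0.0716 for Cyp4a31 and Cyp4f15, but -0.909 for Cyp4f14 and Cyp4v3. A value near 0 over the 7 mice thus does not show that a pair was unrelated within each group. Flox/flox replicate 1 had the highest level of the 4 flox/flox mice for Cyp4a12a, Cyp4a12b, Cyp4a32, Cyp4f13, Cyp4f14 and Cyp4f15, and the lowest for Cyp4a10, Cyp4a14 and Cyp4v3. These values describe points that share libraries and depth, and near copies share reads.

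Over the 7 mice, log2 CPM of Cyp4a12a was most like that of Nat8f5 (Pearson r = 0.985), Npc1 (0.984) and Manbal (0.982) among genes outside the family. Cyp4a14 was close to Tbrg1 (0.993) and Pard3 (0.992), and Cyp4f14 most like Tnfrsf1a (0.996), Tex264 (0.991) and Tatdn2 (0.990). An r over 0.95 was reached by 49 genes for Cyp4a12a, 308 for Cyp4a14 and 161 for Cyp4f14. Likeness here includes the difference between the groups, which all of these genes share.

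Of the other Cyp4 genes, 7 were in the table and 4 had enough counts to test. Cyp4f17, next to Cyp4f16 on chromosome 17, rose by 1.08 ± 0.30 (SE) on the log2 scale (adjusted p = 0.0323), at 11.9, 7.78, 5.48 and 8.96 CPM in flox/flox mice and 11.4, 23.5 and 19.1 CPM in mice labelled hep-/-. Its groups overlapped, and the call was lost without any 1 of flox/flox replicates 2, 3 and 4 or replicates 2 and 3 labelled hep-/- (adjusted p from 0.0619 to 0.114). Cyp4b1, known mainly from lung, Cyp4f16 and Cyp4f18, the leukotriene hydroxylase of neutrophils, had log2 fold changes of -0.37, 0.02 and 0.52 and were not called (adjusted p = 0.588, 0.966 and 0.203). Cyp4a30b had 0 counts in every library, where 3 counts would be 0.0690 to 0.0987 CPM, and Cyp4f39 and Cyp4x1 had at most 10 and 9 counts in any library. Cyp4a29, Cyp4f37 and Cyp4f40 were not analysed here.

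Genes that work with the members were taken from lists written by hand, with earlier results of these data known. Each share called below stands beside the 15.8% of all tested genes as a description. Nothing is concluded from how far a share lies from it. Of 6 redox partners of P450 enzymes, 1 (16.7%) fell and none rose, as without replicate 3 labelled hep-/-, with a median log2 fold change of -0.19. Cyb5b, a cytochrome b5 of the mitochondrial outer membrane, fell by 1.17 ± 0.25 (SE) on the log2 scale (adjusted p = 0.0118), while Por, the reductase that supplies every microsomal P450, was at 573 CPM in flox/flox mice and 452 CPM in the others, a log2 fold change of -0.34 (adjusted p = 0.346). Of 7 alcohol and aldehyde dehydrogenases tested, 3 (42.9%) fell and none rose, with a median of -0.51, and 2 fell without replicate 3 labelled hep-/-. Adh4 fell by 1.57 ± 0.26 (adjusted p = 0.00545), Aldh1a1 by 1.47 ± 0.28 (adjusted p = 0.00881) and Aldh3a2, the fatty aldehyde dehydrogenase, by 0.85 ± 0.25 (adjusted p = 0.0397). The call of Aldh3a2 was lost without any 1 of flox/flox replicates 2, 3 and 4 or replicates 2 and 3 labelled hep-/- (adjusted p from 0.0670 to 0.108).

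Of 14 genes of peroxisomal import and oxidation of dicarboxylic and long-chain acids, 4 (28.6%) fell and none rose, as without replicate 3 labelled hep-/-, and the median log2 fold change was -0.57. Ehhadh, the bifunctional enzyme that handles dicarboxylic acids, fell by 1.66 ± 0.28 (SE) from 1707 to 538 CPM (adjusted p = 0.00572), with a log2 fold change of -1.82 without replicate 3 labelled hep-/- (adjusted p = 0.00907). Nudt7, a peroxisomal CoA hydrolase, fell by 1.46 ± 0.29 (adjusted p = 0.00977) and Abcd3, a peroxisomal acyl-CoA transporter, by 1.01 ± 0.30 (adjusted p = 0.0426). The call of Abcd3 was lost without any 1 of flox/flox replicates 2, 3 and 4 or replicates 1 and 2 labelled hep-/- (adjusted p from 0.0702 to 0.110).

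Of 39 PPARα target genes outside the family, 9 (23.1%) fell and none rose (adjusted p under 0.05 and the fold threshold), with a median log2 fold change of -0.25. Of the 39, 8 also stand on the peroxisomal or dehydrogenase lists, among them 3 of the 9 called (Ehhadh, Abcd3 and Aldh3a2), so these counts are not independent. Hadha, of mitochondrial β-oxidation, fell by 1.37 ± 0.22 (SE, adjusted p = 0.00505) and Retsat, a retinol saturase, by 1.34 ± 0.21 (adjusted p = 0.00396). The count was 5 without flox/flox replicate 2, and without replicate 3 labelled hep-/- 8 fell and 1 rose. Within the Cyp4 family, the log2 fold changes of the PPARα targets Cyp4a14 and Cyp4a10 were -0.72 and 0.20, the latter with overlapping groups. Of 23 receptors and regulators, 2 fell and 2 rose (17.4%, near the share of all genes), as without replicate 3 labelled hep-/-. Ppara was at 274 and 239 CPM, a log2 fold change of -0.19 ± 0.19 (adjusted p = 0.515), and its partner Rxra fell by 1.15 ± 0.20 (adjusted p = 0.00605), with all 3 mice labelled hep-/- at 128 to 162 CPM and all 4 flox/flox mice at 294 to 383 CPM. Pparg fell by 0.92 ± 0.25 (adjusted p = 0.0311), a call lost without flox/flox replicate 2 or 4 or replicate 2 or 3 labelled hep-/- (adjusted p from 0.0557 to 0.0997). Cux2, a repressor of male-biased liver genes, rose by 2.03 ± 0.45 (adjusted p = 0.0145) and is also on the female-biased list below, and Nr1i2, the xenobiotic receptor PXR, rose by 0.81 ± 0.18 (adjusted p = 0.0132). The call of Cux2 was lost without replicate 2 labelled hep-/- (adjusted p = 0.0631), and 2 regulators were called without flox/flox replicate 2 or replicate 2 labelled hep-/-.

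**Figure D5:**
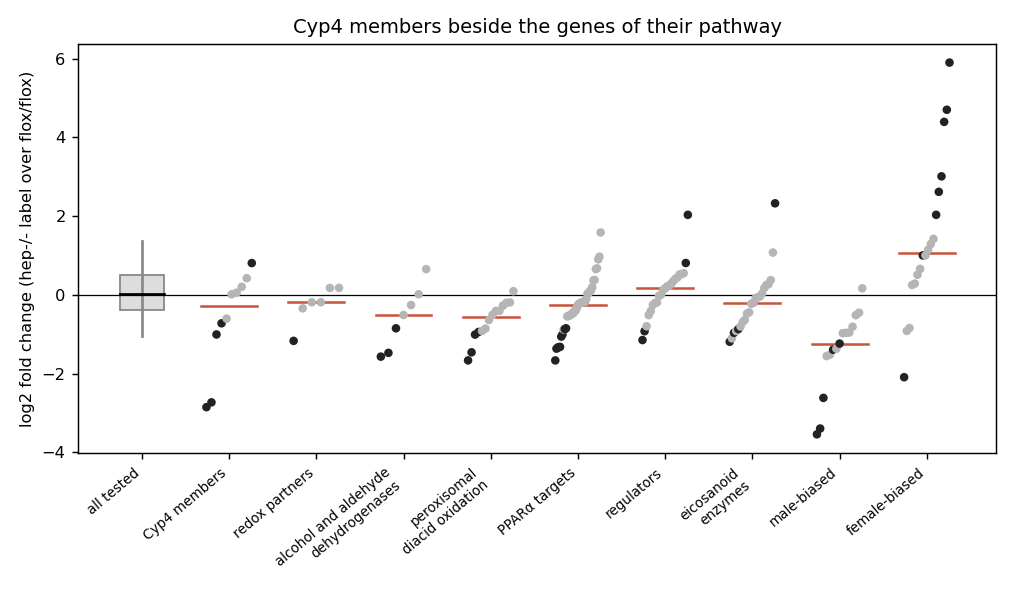
Log2 fold change, mice labelled B4galt1 hep-/- (n = 3) over flox/flox mice (n = 4), of every tested gene in the Cyp4 members and 8 lists (1 point per gene, black where called, red bar at the median), beside all 15179 tested genes (box from the 25th to the 75th percentile, line from the 5th to the 95th). Medians lie at -0.29 for the members, -0.57 for peroxisomal oxidation, -1.24 for male-biased and 1.07 for female-biased genes, against 0.02 over all genes.

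CYP4 products belong to the eicosanoid network. Of 22 eicosanoid genes tested, 3 fell and 1 rose (18.2%, near the 15.8% of all genes), as without replicate 3 labelled hep-/-, with a median of -0.21. The list held epoxygenases, epoxide hydrolases, leukotriene genes, cyclooxygenases and a phospholipase. Cyp2j9 rose by 2.33 ± 0.34 (SE, adjusted p = 0.00361), from 6.11 to 30.6 CPM, Cyp2c38 fell by 1.19 ± 0.22 (adjusted p = 0.00811), and Alox5ap, the activator of leukotriene synthesis in myeloid cells, fell by 0.96 ± 0.26 (adjusted p = 0.0293) along with Ephx1 (-0.87, adjusted p = 0.0183). Alox5ap fell together with the macrophage markers given above, and its call was lost without flox/flox replicate 2 or 3 or replicate 2 or 3 labelled hep-/- (adjusted p from 0.0618 to 0.0800). Without flox/flox replicate 2, 2 genes of this list were called.

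Cyp4a12a and Cyp4a12b are male-biased in mouse liver, so other sex-biased genes were counted beside them. Of 15 male-biased genes tested outside the family, 5 (33.3%) fell and none rose, 14 had a log2 fold change below 0, and the median was -1.24. Cyp2d9 fell by 2.62 ± 0.35 (SE, adjusted p = 0.00283), from 123 to 358 CPM in the 4 flox/flox mice to 29.7 to 51.1 CPM in the 3 mice labelled hep-/-. Slco1a1 fell from 0.778 to 8.59 CPM to 0.0302 to 1.18 CPM (adjusted p = 0.0302), with overlapping groups, and Ugt2b38 from 1.08 to 2.43 CPM to 0 to 0.460 CPM (adjusted p = 0.0293). At such low counts a fitted fold change depends on the prior count, and none is given. Both genes passed the count filter through the flox/flox mice, where they were high. Their calls, and the count of called genes on this list, carry that limit. The call of Slco1a1 was lost without flox/flox replicate 3 or 4 or replicate 1 or 2 labelled hep-/- (adjusted p from 0.0576 to 0.0782) and that of Ugt2b38 without flox/flox replicate 2 or 4 or replicate 1 labelled hep-/- (adjusted p from 0.0570 to 0.0784). The count of called male-biased genes was 3 without flox/flox replicate 2 or 3, 1 without flox/flox replicate 4 or without replicate 1 labelled hep-/-, 2 without replicate 2 labelled hep-/- and 8 without replicate 3 labelled hep-/-. The log2 fold changes of Cyp4a12a and Cyp4a12b ran from -3.05 to -2.59 and from -2.96 to -2.49 with any 1 library left out.

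Of 18 female-biased genes tested, 7 rose and 1 fell (44.4% called), with a median of 1.07, and without replicate 3 labelled hep-/- 7 rose and 1 fell of 19. The split depended on the filter and the tool, with 3 higher and 3 lower of 12 genes that had at least 10 counts in every mouse, and 7 higher and 3 lower by DESeq2. Sult2a1 rose from 0.0283 to 0.803 CPM in flox/flox mice to 12.6 to 33.9 CPM in mice labelled hep-/- (adjusted p = 0.00141). Cyp2b13 rose from 0.184 to 1.10 CPM to 11.2 to 19.5 CPM (adjusted p = 0.000654) and Sult2a2 from 0.0920 to 7.03 CPM to 33.0 to 77.2 CPM (adjusted p = 0.00732). The lowest flox/flox libraries held 1, 8 and 4 counts of these genes, which the filter of 10 counts in every mouse leaves out. Ntrk2 fell by 2.09 (adjusted p = 0.00352). All 7 mice were male by label, and no gene of the sex-chromosome list was called among 4 tested.

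Of 11 pericentral hepatocyte genes, 6 (54.5%) fell and none rose, led by Rhbg (-2.02, adjusted p = 0.0230), Oat (-1.76, adjusted p = 0.00943) and Slc1a2 (-1.57, adjusted p = 0.00540), with a summed level of 11623 to 13079 CPM in flox/flox mice and 3180 to 6779 CPM in mice labelled hep-/-. The call of Rhbg was lost without replicate 1 labelled hep-/- (adjusted p = 0.0580). Without replicate 3 labelled hep-/- the log2 fold changes of Rhbg, Oat and Slc1a2 were -3.21, -2.27 and -1.85. Of 10 periportal genes none was called, including Pck1 (0.18, adjusted p = 0.649) and Cps1 (-0.85, adjusted p = 0.110), although Cps1 fell by 1.43 without replicate 3 labelled hep-/- (adjusted p = 0.0106). The part of liver zonation in the levels of the Cyp4 members was not tested.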

How the data were processed

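The authors extracted RNA with TRIzol and prepared VAHTS libraries. The submitters' processing notes name fastp, HISAT2, HTSeq, DESeq2, R 3.2.0 and the build GRCm39. The annotation, strand setting and treatment of multiply mapped reads are not given in the sources used here. The authors deposited counts per gene, whole numbers without normalization, and FPKM values, which scale each count by gene length and library total, mitochondrial transcripts included. filterByExpr, at a minimum count of 10 and a minimum total of 15, passed 15179 of 23347 genes. TMM factors scaled the libraries, and edgeR 4.0.16 (R 4.3.3) gave quasi-likelihood tests of group with Benjamini-Hochberg adjustment over all 15179 genes. The common biological coefficient of variation was 0.301. No pair of libraries agreed within sampling noise (smallest chi-square per gene 58.5). Adjusted p-values weigh the difference between the groups against the spread between mice within them, estimated with information shared across genes.

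Levels between genes used FPKM rescaled by the TMM factors. Coding sequences (GENCODE M21, GRCm38) were aligned with Biopython 1.88, in place of protein sequences, and promoters and gene order came from RefSeq on GRCm38.p6. Coordinates of the deposited counts were not used, since the builds differ. The scripts were tested on simulated data. The members and the gene lists were chosen with earlier results of these data known. The text names all members, B4galt1, every other Cyp4 gene, Ppara, Rxra, Pparg, Por, Ehhadh, Aldh3a2, the 3 called genes with the largest change in each list or the 2 most expressed where none was called, and the 3 genes most like each of Cyp4a12a, Cyp4a14 and Cyp4f14. Nr1i2, Ephx1, Ntrk2, Alb and 5 endothelial markers were added after their values were seen. Some genes that these rules name are not reported here. The alternatives tried were DESeq2 1.42.0 in place of edgeR, normalization by upper quartile or by RLE, a count filter of 1 in any mouse or of 10 in all mice, limma 3.58.1 on log2 FPKM (pseudocount 1 or 0.1 where 3 mice reached FPKM 1, and pseudocount 1 over all genes above 0), removal of the 13 mitochondrial genes, a block for replicate number, no fold threshold, near copies summed, and omission of each mouse.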

Additional observations from a re-analysis of the deposited data

Results flagged for a closer look

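Values of 76 genes, marker lists and library measures were searched in the 4 flox/flox mice for a mouse far from the others, by Dixon's test, and chance alone flags about 1 in 20 such groups. None of the 10 Cyp4 members was flagged. Flox/flox replicate 3 had 71.3 CPM of the macrophage marker Adgre1, where the other 3 flox/flox mice lay between 20.1 and 25.6 CPM, a gap of 0.894 of the range. The same library stood apart in sinusoidal endothelial markers, with a summed level of 425 CPM where the others lay between 112 and 139 CPM. It had 48.4 CPM of Lyve1 (others at most 5.0), 51.1 CPM of Dnase1l3 (at most 12.7), 90.9 CPM of Clec4g (at most 28.4), 35.1 CPM of Pecam1 (at most 11.7) and 115 CPM of Ehd3 (at most 43.0). Flox/flox replicate 4 had 140.8 CPM of the collagen gene Col3a1, where the others lay between 249 and 264 CPM, a gap of 0.878 of the range. In flox/flox replicate 3 Cyp4a12a, Cyp4f14 and Cyp4f15 were at 21.5, 43.2 and 76.3 CPM, the last 2 of them the lowest of the flox/flox mice.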

How the results depend on the processing

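Over the alternatives run, log2 fold changes of the members, given as values without a test, were -3.05 to -2.34 for Cyp4a12a, -2.96 to -2.18 for Cyp4a12b, -1.21 to -0.90 for Cyp4f14, -0.85 to -0.67 for Cyp4a14, 0.67 to 0.91 for Cyp4f15 and -0.79 to -0.40 for Cyp4v3. The number of members that met the call rule, 5 in the report, was 3 to 5 with a mouse left out and 3 to 6 over all alternatives. No called log2 fold change reversed.

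Among all tested genes 2404 were called (1189 lower, 1215 higher). This became 885 to 2396 with a mouse left out (885 without flox/flox replicate 2, 1199 without replicate 2 labelled hep-/-, 1405 and 1552 without flox/flox replicates 3 and 4) and 1330 by limma on every gene above 0 on log2(FPKM + 1). FPKM values were not rescaled, and limma on them gave 1733 lower and 561 higher at pseudocount 1, 1946 and 601 at 0.1, and 1088 and 242 for every gene above 0, with median log2 fold changes of -0.14, -0.18 and -0.00 over the genes tested. DESeq2 called 3271.

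Counts on the gene lists moved by more than 1.5 times as follows. With a mouse left out, called genes numbered 0 to 1 for other Cyp4 genes, 5 to 10 for PPARα targets, 2 to 5 for regulators, 2 to 5 for eicosanoid genes and 1 to 8 for male-biased genes. By limma on FPKM of at least 1 in 3 mice, at both pseudocounts, they were 0 for other Cyp4 genes, 8 for peroxisomal oxidation, 8 (or 9 at 0.1) for eicosanoid genes and 8 for male-biased genes, and on every gene above 0 they were 0 for other Cyp4 genes and 2 for regulators. DESeq2 and the filter of at least 1 count in any mouse each gave 8 male-biased genes.

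The replicate numbers did not pair the mice: deviations of same-numbered mice correlated at -0.34, -0.03 and 0.08, and the mice are different animals. With the replicate block, which leaves flox/flox replicate 4 without a partner, 1267 genes were called, with 3 members (Cyp4a12a, Cyp4a12b, Cyp4f14), 0 other Cyp4 genes, 5 PPARα targets and 2 regulators. The 3 mice labelled hep-/-, 1 of which did not match its label in B4galt1, limit these calls. Every member had at least 77 counts in each library, while genes on the lists reached down to 0 counts (Ugt2b38), where depth limits the values.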
